A study of Homo sapiens with 112 samples.

Results

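The comparison described here set VCaP cells given the synthetic androgen R1881 together with 2 µM darolutamide against VCaP cells given the vehicle DMSO, both for 22 h. It asked which transcript levels still differed from those of hormone-starved cells when the androgen and its antagonist were present together. The libraries were chosen by their labels, 5 with drug plus androgen and 8 with DMSO, which makes 13 of the 112 RNA-seq libraries of the series. The series also holds VCaP libraries with R1881 alone or with 500 nM darolutamide, the same treatments for 8 h, and all of these in a further prostate cancer line, LAPC4. All cultures were first starved of hormone in charcoal-stripped serum for 2 days, and R1881 was used at 1 nM. The DMSO groups received no R1881 and no darolutamide. No group received darolutamide without R1881, so an effect of the drug on its own and what remained of the androgen response cannot be told apart here. VCaP is a single established cell line from a prostate cancer metastasis, so the replicates stand for cultures of one line. P-values for VCaP set a difference against the spread between libraries of a group, estimated over all 55 VCaP libraries and not these 13 alone.

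The androgen receptor is a transcription factor that enters the nucleus when it binds an androgen and then switches on secretory and metabolic genes of the prostate epithelium, among them the kallikreins. It also lowers other genes, many of which rise when androgen is withdrawn. Darolutamide occupies the receptor and keeps androgen from activating it. Androgen acts on growth in more than one direction in cells that carry a strongly expressed receptor: low activity can favour entry into S phase, and high activity can hold it back. VCaP cells have an amplified receptor gene and the fusion of TMPRSS2 with ERG, which puts ERG under an androgen-responsive promoter.

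Read totals per library ran from 21356002 to 24973835 in the 2 µM group and from 12951648 to 21845652 in the DMSO group, so levels are given as CPM, the reads of a gene scaled to a common library size. The slope of log2 CPM on gene GC content overlapped between the groups, with -7.90 to -4.81 in the 2 µM libraries and -9.61 to -5.71 in the DMSO libraries. All 12 genes of a list of luminal prostate markers, which also holds the fusion gene ERG, were measured. Their summed level was 4895 to 5003 CPM with DMSO and 5219 to 5403 CPM with drug plus androgen. Of 18 markers of other cell types, 8 had at most 3 reads in every library of the DMSO and drug plus androgen groups compared. Among them were PTPRC of leukocytes, CDH5 of endothelium and TP63 of basal cells. The summed level of these 18 genes was 152 to 163 CPM with DMSO and 31.6 to 34.1 CPM with drug plus androgen, mostly through ALB, the plasma protein albumin, and LUM, a matrix proteoglycan. Of the 8 markers tested, COL3A1, PDGFRB and ACTA2 fell too, and COL1A1 was not called. COL3A1 had only 2 to 11 reads per library with DMSO and 1 to 5 with drug plus androgen. VWF of endothelium rose from 0.283 to 0.577 CPM with DMSO to 1.74 to 2.31 CPM (log2 fold change 2.29, SE 0.20, edgeR adjusted p = 8.69e-15). KRT14 of basal cells, at 0 to 5 reads per library with DMSO and 5 to 13 with drug plus androgen, rose with an edgeR adjusted p of 0.00112. A part of other cells in these changes was not tested.

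Of 58684 listed genes, 19266 had at least 10 reads in at least 4 VCaP libraries and were tested. At an edgeR adjusted p under 0.05, 11365 of them (59.0%) differed between R1881 plus 2 µM darolutamide and DMSO, 5877 upwards (30.5%) and 5488 downwards (28.5%). Most differences were small. The median absolute log2 fold change of the called genes was 0.46, and 54.9% of them lay under 0.5. Only 570 genes (2.96%) rose and 1024 (5.32%) fell by more than 1 on the log2 scale. In 34.2% of tested genes the CPM values of the 5 treated and 8 vehicle libraries did not overlap, and the median log2 fold change of all tested genes was 0.01.

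**Figure D1:**
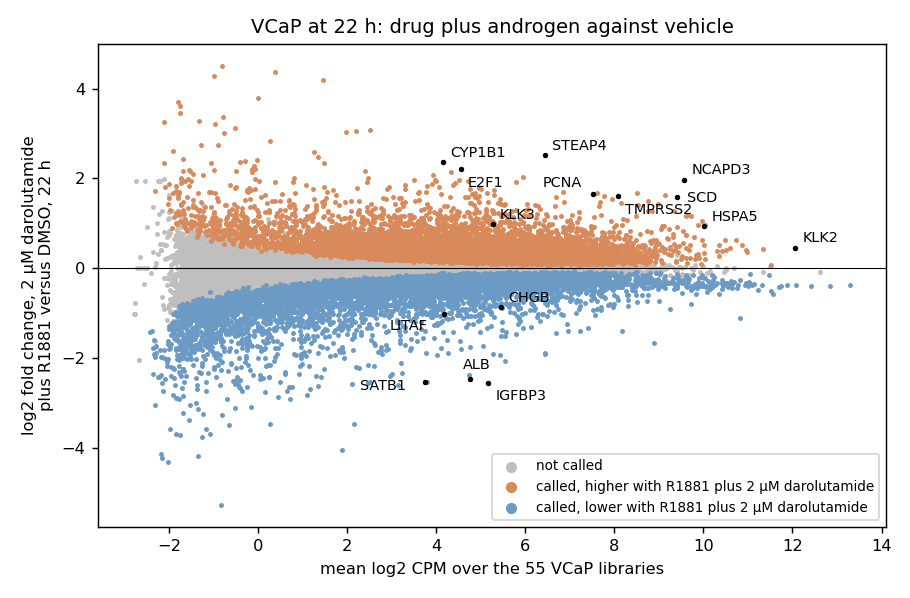
Each point is one of the 19266 tested genes, with its mean log2 CPM over the 55 VCaP libraries on the x axis and its log2 fold change between R1881 plus 2 µM darolutamide and DMSO at 22 h on the y axis. Orange and blue points passed an adjusted p of 0.05, and the named genes are marked in black, with STEAP4 at 2.52 and IGFBP3 at -2.56.

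Most known androgen-induced genes stayed above the vehicle level. Of 46 genes in a list of known androgen-induced genes, 36 rose, 5 fell and 5 were not called, with a median log2 fold change of 0.67, where 30.5% of all tested genes rose. In the R1881 group, where 77.4% of tested genes differed from DMSO (37.4% up and 40.0% down), 43 of them were above DMSO and the median was 2.15. Furthermore, 35 of the 46 lay between the DMSO and R1881 levels and differed from each, against 23.5% of all tested genes. KLK3, which encodes prostate-specific antigen, lies at chr19:50854915-50860764 in GRCh38. Its 250 bases before the start site are shown because they hold a match to the androgen receptor half-site AGAACA, in capitals, which begins 170 bases before the start.

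KLK3, chr19:50854665-50854914, plus strand: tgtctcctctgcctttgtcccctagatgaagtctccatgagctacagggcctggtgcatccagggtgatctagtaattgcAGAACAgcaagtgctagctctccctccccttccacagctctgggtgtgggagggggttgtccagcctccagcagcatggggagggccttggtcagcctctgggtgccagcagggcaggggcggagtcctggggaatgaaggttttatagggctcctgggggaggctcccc

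Levels of KLK3 lay between 14.9 and 19.98 CPM with a median of 17.8 in the 8 DMSO libraries. The 5 libraries with R1881 plus 2 µM darolutamide held 35.0, 34.8, 35.3, 35.5 and 33.5 CPM, all above the highest DMSO library. The level was 1.97-fold that of DMSO (log2 fold change 0.98, SE 0.074, edgeR adjusted p = 3.08e-17). With R1881 alone the range was 177 to 204 CPM, so the treated libraries stood far nearer to vehicle than to androgen.

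The same half-site, searched on both strands, occurred in 2 of 34 promoters of the androgen-induced list that had a RefSeq entry (5.88%) and in 7.36% of 11342 promoters of tested genes. KLK2, the neighbouring kallikrein gene at chr19:50861568-50880567, is close enough in sequence to KLK3 that reads could be divided between them. It ranged between 2588 and 3023 CPM with a median of 2952 with DMSO, and the treated libraries held 4183, 3978, 3759, 4082 and 3814 CPM (log2 fold change 0.45, SE 0.034, edgeR adjusted p = 3.01e-17). Both kallikreins thus rose without overlap between groups, KLK2 by 1.37-fold.

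TMPRSS2, a membrane serine protease at chr21:41464300-41531116, lay between 66.1 and 76.3 CPM with a median of 69.9 with DMSO. In the treated libraries it was at 229.5, 215, 209.7, 195 and 224 CPM, 3.04-fold the vehicle level (log2 fold change 1.60, SE 0.035, edgeR adjusted p = 8.76e-41). R1881 alone gave 1794 to 1943 CPM. ERG, the ETS factor that VCaP cells express from the TMPRSS2 promoter, moved with it: between 132 and 147 CPM with a median of 141 with DMSO against 375, 371, 352, 366 and 402 CPM with drug plus androgen (log2 fold change 1.41, SE 0.037, edgeR adjusted p = 2.21e-37).

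STEAP4, a metalloreductase, was the largest rise among genes above the median expression. Its DMSO libraries lay between 6.52 and 7.75 CPM with a median of 7.37, the treated libraries at 37.8, 43.7, 41.2, 44.1 and 41.5 CPM (log2 fold change 2.52, SE 0.066, edgeR adjusted p = 3.09e-37). The 500 nM libraries held 252 to 299 CPM and the R1881 libraries 877 to 1095 CPM, so none of the 4 groups overlapped. NCAPD3, a condensin subunit, lay between 97.5 and 109 CPM with a median of 105 with DMSO and at 389, 398, 385, 465 and 407 CPM with drug plus androgen, where the fourth library was the highest (log2 fold change 1.97, SE 0.039, edgeR adjusted p = 5.25e-43).

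FKBP5, a co-chaperone of steroid receptors, lay between 67.3 and 76.2 CPM with a median of 71.3 with DMSO, at 188, 192, 182, 205 and 199.6 CPM with drug plus androgen and at 3031 to 3579 CPM with R1881 (log2 fold change 1.42, SE 0.040, edgeR adjusted p = 5.48e-36). For PMEPA1, a membrane protein that restrains growth factor signalling, the gap to the androgen level was small. Its treated libraries held 1240.3, 1242, 1256, 1240.2 and 1245 CPM, the DMSO libraries 572 to 616 CPM and the R1881 libraries 1453 to 1518 CPM (log2 fold change 1.05, SE 0.025, edgeR adjusted p = 3.91e-39). IGF1R, the receptor for insulin-like growth factors, rose from a DMSO median of 249 CPM to 382, 384, 383, 389 and 389 CPM (log2 fold change 0.63, SE 0.028, edgeR adjusted p = 6.25e-27).

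A few members went the other way. MAF, LIFR and HPGD, named after their values were seen as members that fell below DMSO although R1881 raised them, encode a transcription factor, a cytokine receptor and a prostaglandin-degrading enzyme. HPGD held 80.4, 74.2, 82.1, 90.0 and 83.2 CPM against 109 to 131 CPM with DMSO (log2 fold change -0.53, SE 0.061, edgeR adjusted p = 6.5e-11) and 249 to 317 CPM with R1881. LIFR fell less (log2 fold change -0.20, SE 0.058, edgeR adjusted p = 0.00309), as did MAF (log2 fold change -0.43, SE 0.096, edgeR adjusted p = 0.000115). FOLH1B also fell, but it is a near-identical copy of FOLH1, and reads of the pair cannot be assigned with certainty. It was lowered by R1881 as well.

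**Figure D2:**
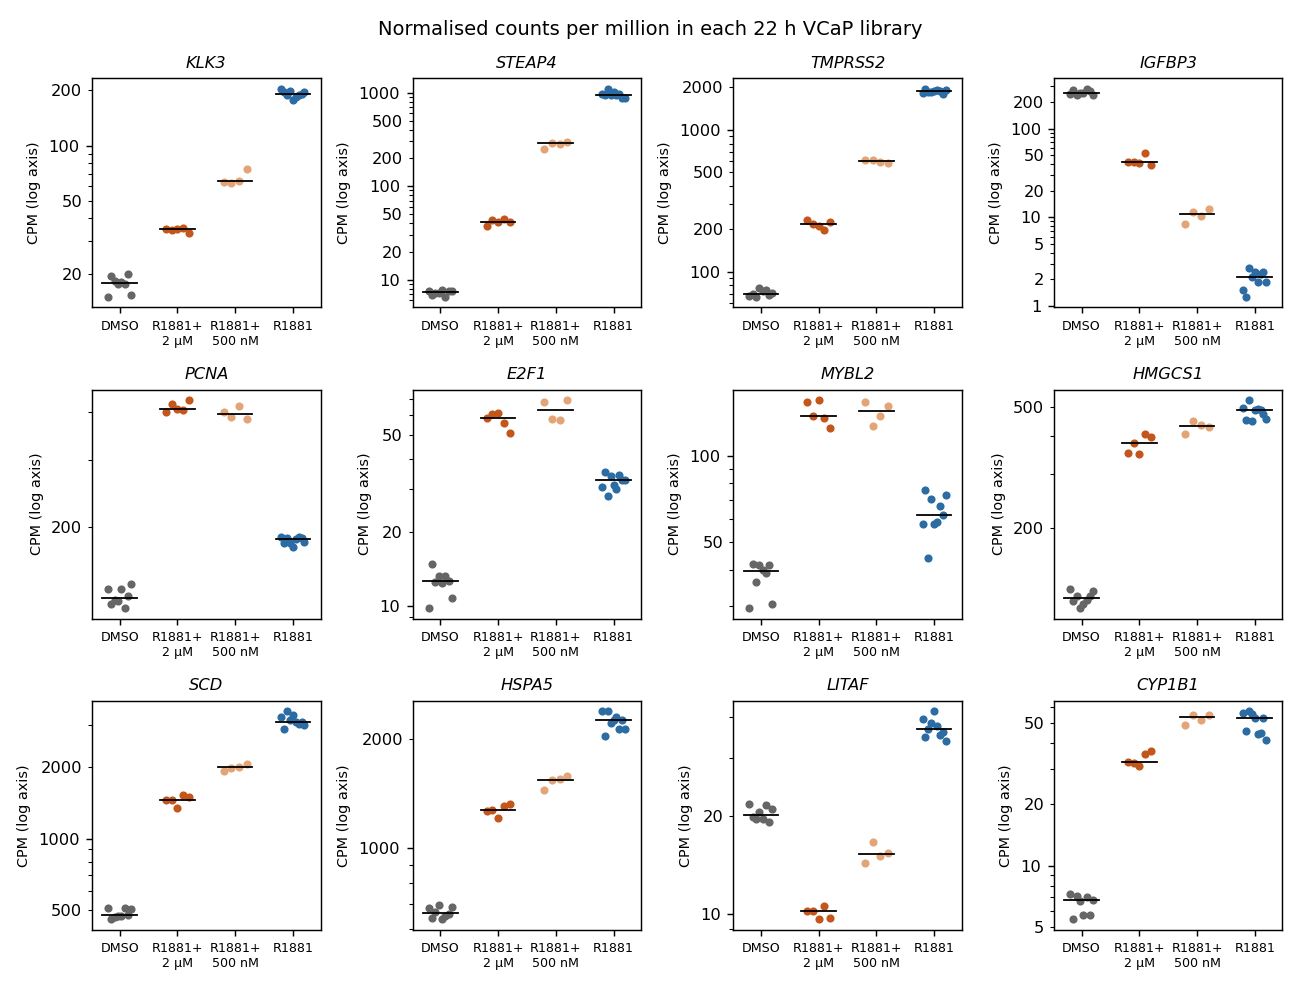
Each panel plots the CPM of one gene on a log axis in the 22 h VCaP libraries, 8 with DMSO, 5 with R1881 plus 2 µM darolutamide, 4 with R1881 plus 500 nM darolutamide and 9 with R1881, with the group median as a bar. KLK3, STEAP4 and TMPRSS2 step up from DMSO to R1881 through the drug groups, PCNA, E2F1 and MYBL2 are highest in the drug groups, and LITAF is lowest with 2 µM.

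A wider view came from genes chosen on other libraries. At 8 h, R1881 raised 1223 genes (6.35%) and lowered 1595 genes (8.28%) by more than 1 on the log2 scale. None of those libraries belongs to the 22 h groups compared, but both times share the gene filter and the estimate of spread. Of the 1223 induced genes, 638 (52.2%) rose with R1881 plus 2 µM darolutamide at 22 h, 136 fell and 449 were not called. Their median log2 fold change against DMSO was 0.35, beside 0.66 with 500 nM darolutamide and 1.32 with R1881. Of the 1595 repressed genes, 1039 (65.1%) fell, 99 rose and 457 were not called, with medians of -0.69, -0.96 and -1.54 for the same 3 groups. Over all tested genes, 30.5% rose and 28.5% fell with 2 µM, and the 2 µM median was 0.01. The 3 comparisons share the DMSO libraries.

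**Figure D3:**
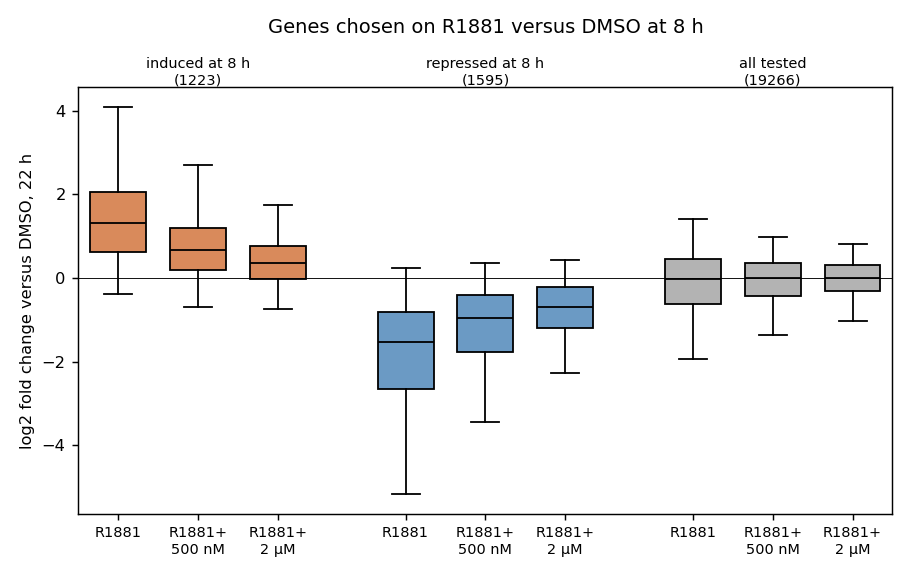
Boxes show the log2 fold change against DMSO at 22 h for genes that R1881 induced (1223) or repressed (1595) at 8 h and for all 19266 tested genes, in the R1881, 500 nM and 2 µM groups. Boxes span the percentiles 25 to 75 and whiskers the percentiles 5 to 95, and the median of the induced set falls from 1.32 to 0.35 while that of the repressed set rises from -1.54 to -0.69.

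Among the 20 genes with the largest rise at 8 h, the extremes at 22 h were STEAP4 and NCAPD3 at one end and RDH10 and TIPARP at the other. RDH10, a retinol dehydrogenase, had risen by 4.83 with R1881 at 8 h. At 22 h it held 12.6, 14.4, 14.2, 17.6 and 14.1 CPM with drug plus androgen, below all 8 DMSO libraries at 24.5 to 28.6 CPM (log2 fold change -0.89, SE 0.083, edgeR adjusted p = 7.66e-14). TIPARP, a target of the aryl hydrocarbon receptor and of androgen, was not called (log2 fold change -0.15, SE 0.079, edgeR adjusted p = 0.0922), and its groups overlapped.

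Most genes that androgen holds down stayed below the vehicle level. In a list of 26 tested androgen-repressed genes, 21 fell, 3 rose and 2 were not called, with a median log2 fold change of -0.99, where 28.5% of all tested genes fell. IGFBP3, a binding protein that sequesters insulin-like growth factors, lies at chr7:45912245-45921874. It lay between 241 and 282 CPM with a median of 253 with DMSO and at 42.3, 42.5, 40.7, 53.6 and 38.7 CPM in the treated libraries (log2 fold change -2.56, SE 0.072, edgeR adjusted p = 8.07e-36). R1881 alone left 1.26 to 2.71 CPM, and no group overlapped another.

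FOLH1, which encodes prostate-specific membrane antigen, ranged between 282 and 313 CPM with a median of 296 with DMSO and held 74.2, 77.7, 71.3, 84.8 and 85.7 CPM with drug plus androgen (log2 fold change -1.92, SE 0.065, edgeR adjusted p = 2.36e-32). NAALAD2, a peptidase of the same family, lay at 69.6 to 85.8 CPM with DMSO and at 12.2, 16.4, 13.8, 15.9 and 18.2 CPM in the treated libraries (log2 fold change -2.39, SE 0.096, edgeR adjusted p = 8.28e-29). The FOLH1 value shares the uncertainty given for its copy. The 3 members that rose were named after their values were seen. TMEFF2, a transmembrane proteoglycan, was 1.08 above DMSO and lay above the R1881 level too, as did HES6 at 0.85, a helix-loop-helix factor. CHRNA2, a nicotinic receptor subunit, was raised by R1881 itself (2.22) and stood at 0.87.

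Other large falls among well expressed genes were SATB1, MGP, ALB and TSPAN8. SATB1, a chromatin organiser at chr3:18345377-18445621, lay between 42.7 and 48.8 CPM with a median of 43.9 with DMSO and at 8.73, 6.96, 7.78, 6.62 and 8.06 CPM with drug plus androgen (log2 fold change -2.54, SE 0.078, edgeR adjusted p = 2.71e-34). MGP, matrix Gla protein, had 4.05, 4.27, 4.16, 4.83 and 5.67 CPM in the treated libraries against 23.3 to 31.0 CPM (log2 fold change -2.53, SE 0.090, edgeR adjusted p = 3.21e-31). All 4 genes were without overlap and lay between the DMSO and R1881 levels. TSPAN8, a tetraspanin, fell to 26.1, 32.0, 28.0, 31.2 and 33.2 CPM (log2 fold change -2.06, SE 0.076, edgeR adjusted p = 1.19e-30), and ALB to 20.3, 21.0, 19.4, 23.3 and 22.5 CPM from 114 to 125 CPM (log2 fold change -2.48, SE 0.093, edgeR adjusted p = 3.36e-30). LUM was at 4.05, 4.67, 4.79, 4.66 and 4.08 CPM against 24.4 to 28.8 CPM with DMSO (log2 fold change -2.59, SE 0.11, edgeR adjusted p = 4.4e-28). Also SSTR5-AS1, P2RY1 and B3GALT5, taken from the strongest R1881 falls at 8 h, were below DMSO, with log2 fold changes of -0.76, -0.72 and -1.94. SSTR5-AS1 is an antisense gene, and whether its reads were counted by strand is not stated.

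Among enzymes that make, activate or clear steroids, 5 of 17 tested members rose, a share near the 30.5% of all tested genes, and 7 fell, against 28.5% of all. Their median was -0.17. AKR1C3, which converts weak androgens to testosterone, held 4.95, 5.22, 3.98, 5.23 and 5.44 CPM against 20.3 to 24.8 CPM with DMSO (log2 fold change -2.17, SE 0.080, edgeR adjusted p = 1.09e-30). AKR1C1, a close relative with overlapping sequence, fell likewise (log2 fold change -1.99, SE 0.11, edgeR adjusted p = 1.74e-22). Of the glucuronidating enzymes UGT2B15 and UGT2B17, which inactivate androgens and resemble each other closely, UGT2B17 was named after its values were seen: it held 1.62, 1.74, 1.94, 1.96 and 2.02 CPM against 5.51 to 7.26 CPM (log2 fold change -1.79, SE 0.15, edgeR adjusted p = 1.89e-15).

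DNA replication genes did not lie between vehicle and androgen. All 50 members of the list rose with R1881 plus 2 µM darolutamide, by a median of 1.40 on the log2 scale and within a range of 0.45 to 2.21. In all 50 the treated libraries did not overlap the DMSO libraries, against 18.4% of tested genes that were higher without overlap. All 50 also exceeded the R1881 level by the larger of both p-values, where 11.0% of tested genes (2128) lay above both groups, 6.84% (1317) below both and 23.5% (4536) between them. The median difference of R1881 alone from DMSO was 0.24. The list was written with earlier results of these data known. More cells in S phase and more of these transcripts per cell cannot be told apart in bulk RNA. Per library, the mean log2 CPM of the 50 genes ran from 4.49 to 4.59 with DMSO, 5.87 to 5.91 with 2 µM darolutamide, 5.83 to 5.92 with 500 nM and 4.75 to 4.81 with R1881.

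PCNA, the sliding clamp of the DNA polymerases, lies at chr20:5114953-5126626 on the minus strand. Levels were between 122 and 142 CPM with a median of 131 with DMSO and 401, 421, 409, 407 and 431 CPM with drug plus androgen (log2 fold change 1.65, SE 0.030, edgeR adjusted p = 1.3e-44). R1881 alone gave 177 to 189 CPM, so the treated libraries were 3.14-fold the vehicle level and above every R1881 library. The E2F factors, which switch on such genes at the start of S phase, bind sites with the letters TTTCCCGC, TTTCGCGC, TTTGCCGC or TTTGGCGC. Searched on both strands in the 250 bases before the start, these letters occurred in 16 of 40 replication promoters with a RefSeq entry (40.0%), in 4.33% of 11342 promoters of tested genes and in 2.79% of all 27305. They occurred in 2 of 40 promoters of the mitosis list (5.00%). Of the replication promoters with a match, 3 from genes with small adjusted p follow in GRCh38.p14, 5′ to 3′ on the strand of the gene, with the matches in capitals.
PCNA, chr20:5126623-5126872, minus strand: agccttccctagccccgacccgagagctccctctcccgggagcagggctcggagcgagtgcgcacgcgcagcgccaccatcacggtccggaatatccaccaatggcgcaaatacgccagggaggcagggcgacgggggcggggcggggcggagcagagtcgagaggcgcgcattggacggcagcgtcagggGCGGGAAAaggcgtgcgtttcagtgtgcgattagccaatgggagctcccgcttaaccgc
POLA2, chr11:65261712-65261961, plus strand: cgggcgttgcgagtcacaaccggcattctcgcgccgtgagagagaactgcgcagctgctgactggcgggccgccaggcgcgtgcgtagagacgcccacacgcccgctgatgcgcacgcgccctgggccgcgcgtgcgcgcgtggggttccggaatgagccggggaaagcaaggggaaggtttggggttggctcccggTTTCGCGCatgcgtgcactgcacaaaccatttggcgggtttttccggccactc
MCM6, chr2:135876444-135876693, minus strand: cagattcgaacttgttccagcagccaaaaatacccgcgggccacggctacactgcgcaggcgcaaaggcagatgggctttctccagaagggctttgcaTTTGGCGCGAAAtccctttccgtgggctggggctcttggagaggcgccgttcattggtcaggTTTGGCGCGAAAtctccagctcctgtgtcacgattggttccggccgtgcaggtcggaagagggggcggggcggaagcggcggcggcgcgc

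PCNA and POLA2 hold 1 match each, which begin 59 and 53 bases before the start. MCM6 holds 4 that overlap in pairs, since its letters can be read on either strand. A match describes the letters only. POLA2, the second subunit of the primase-polymerase complex, held 108, 103, 97.4, 109 and 103 CPM with drug plus androgen and 37.1 to 40.9 CPM with DMSO (log2 fold change 1.41, SE 0.039, edgeR adjusted p = 3.51e-36). MCM6 of the replicative helicase held 208, 207, 191, 219.8 and 219 CPM and 63.3 to 75.4 CPM (log2 fold change 1.59, SE 0.048, edgeR adjusted p = 1.22e-34). Neither gene overlapped between groups.

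Ordered by role, the 6 helicase subunits MCM2 to MCM7 rose by 1.14 to 1.79 on the log2 scale. MCM4 had the smallest adjusted p of the list beside PCNA, at 504, 521, 476, 521 and 534 CPM against 159 to 174 CPM (log2 fold change 1.61, SE 0.029, edgeR adjusted p = 1.3e-44). The 4 licensing factors ORC1, ORC6, CDC6 and CDT1, which load that helicase, rose by 1.5 to 2.03. CDC6 held 145, 144, 129, 150.5 and 153 CPM with drug plus androgen and lay between 31.8 and 38.8 CPM with a median of 35.4 with DMSO (log2 fold change 2.03, SE 0.054, edgeR adjusted p = 3.94e-37), and R1881 left it at 77.8 to 89.3 CPM.

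The 7 factors that activate the helicase or accompany the fork, CDC45, the GINS subunits, MCM10 and CLSPN, rose by 1.32 to 1.94. Among the 7 polymerase and primase subunits the rises were 0.62 to 1.55, the smallest in PRIM1. R1881 alone lowered PRIM1 by 1.41 on the log2 scale, to 10.5 to 14.0 CPM, and the treated libraries stood at 46.8, 52.4, 47.7, 50.0 and 52.3 CPM, above the DMSO range of 29.9 to 36.3 CPM. Clamp and clamp loader genes rose by 0.94 to 1.65, the nucleotide-supply enzymes, RRM1, RRM2, TYMS, TK1 and DUT among them, by 0.70 to 1.61, and the single-strand binding subunits RPA2 and RPA3 by 0.77 and 0.45.

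Regulators of S-phase entry rose by 0.81 (CCNE1) to 2.21 (E2F1). E2F1, the transcription factor at chr20:33675477-33686385, lay between 9.82 and 14.9 CPM with a median of 12.6 with DMSO, at 58.7, 60.6, 61.3, 55.7 and 50.9 CPM with drug plus androgen and at 28.2 to 35.2 CPM with R1881 (log2 fold change 2.21, SE 0.084, edgeR adjusted p = 5.78e-30). Outside the list, DTL, EXO1, CDCA7 and FAM111B were the 4 well expressed genes farthest above both groups. DTL, which marks licensing factors for degradation, held 63.9, 65.4, 58.0, 68.6 and 70.7 CPM against 16.7 to 21.4 CPM (log2 fold change 1.77, SE 0.061, edgeR adjusted p = 5.86e-32). EXO1, a repair exonuclease, held 50.1, 52.1, 47.7, 52.0 and 54.9 CPM against 16.04 to 18.4 CPM (log2 fold change 1.58, SE 0.055, edgeR adjusted p = 8.03e-32). CDCA7, a chromatin-associated factor of dividing cells, and FAM111B, a protease, rose by 1.59 and 1.65. Between 2 µM and 500 nM darolutamide these 4 were not called, with edgeR adjusted p from 0.0663 to 0.729.

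Mitosis genes were less far above vehicle. Of 48 members, 42 rose and 6 were not called, with a median log2 fold change of 0.36, and the same 42 lay above both the DMSO and the R1881 level. Of all tested genes, 30.5% rose and 11.0% lay above both. R1881 alone lowered 42 of the 48, with a median of -0.49, where it lowered 40.0% of all tested genes. MKI67, the proliferation antigen Ki-67, was named after its values were seen: it held 278, 264, 265, 303 and 310.3 CPM with drug plus androgen, 179 to 217 CPM with DMSO and 147 to 172 CPM with R1881 (log2 fold change 0.51, SE 0.048, edgeR adjusted p = 1.23e-13). BIRC5, or survivin, a part of the chromosomal passenger complex, rose with log2 fold change 0.78, SE 0.043, edgeR adjusted p = 1.16e-22. MYBL2, the activator of late cell-cycle genes, held 154, 138, 156, 135 and 125 CPM against 29.4 to 42.0 CPM (log2 fold change 1.92, SE 0.11, edgeR adjusted p = 1.16e-21) and was the largest rise of the list. CENPA, CENPE, CDC25C, PTTG1, ASPM and HMMR were the 6 not called.

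Sterol synthesis was the next strongest list. The pathway builds cholesterol from acetyl units through mevalonate and is switched on by SREBP transcription factors. Of 26 tested genes, 24 rose, INSIG2 fell and TM7SF2 was not called, where 30.5% of all tested genes rose. The median was 1.02. With R1881 the median was 1.54, and 19 of the 26 lay between both levels, against 23.5% of all tested genes. HMGCS1, the first committed synthase, lay between 109 and 126 CPM with a median of 117 with DMSO and at 352, 380.3, 349, 407 and 398 CPM with drug plus androgen (log2 fold change 1.69, SE 0.050, edgeR adjusted p = 7.99e-35). R1881 gave 449 to 525 CPM, above all treated libraries. The 19 enzymes that rose did so by 0.28 to 1.69. STARD4, a sterol carrier named after its values were seen, had the largest rise, to 19.8, 19.5, 18.4, 21.8 and 19.6 CPM from 4.44 to 6.59 CPM (log2 fold change 1.96, SE 0.086, edgeR adjusted p = 4.02e-27).

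Fatty acid synthesis followed in part, with 19 of 27 genes up, 2 down and a median of 0.46. Among all tested genes 30.5% rose and 28.5% fell. SCD, the desaturase that makes oleate, held 1454, 1458, 1341, 1531 and 1499 CPM and lay between 458 and 513 CPM with a median of 476 with DMSO (log2 fold change 1.59, SE 0.042, edgeR adjusted p = 3.09e-37). FADS1, a desaturase of polyunsaturated fatty acids, held 203, 209.9, 187, 205 and 211 CPM (log2 fold change 1.18, SE 0.038, edgeR adjusted p = 3.8e-33). The 2 falls were ELOVL4 and ACSL5, an acyl-CoA synthetase at 58.9, 59.0, 55.5, 59.1 and 64.2 CPM against 149.6 to 171 CPM (log2 fold change -1.43, SE 0.054, edgeR adjusted p = 3.84e-30), below the R1881 range of 85.9 to 108 CPM as well.

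Genes for protein folding and export rose in 43 of 55 cases and fell in 5, with a median of 0.43, against 1.38 with R1881 and 30.5% of tested genes rising. All 11 chaperones and co-chaperones rose, by 0.48 to 1.91, and all 5 disulfide isomerases, by 0.28 to 1.05. HSPA5, the lumenal chaperone BiP, lay between 637 and 698 CPM with a median of 661 with DMSO and at 1268, 1276, 1215, 1305 and 1326 CPM with drug plus androgen (log2 fold change 0.94, SE 0.036, edgeR adjusted p = 4.01e-30). PDIA6, an isomerase, held 458, 454, 423, 459.9 and 464 CPM against 246 to 260.1 CPM (log2 fold change 0.84, SE 0.032, edgeR adjusted p = 3.75e-30). Among the 6 stress sensors and transcription factors 2 rose and 2 fell, and ERN1 and ATF6 were not called. Of the 9 coat subunits of transport vesicles, 5 rose and 2 fell.

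The amino acid response driven by ATF4 moved in part: 23 of 38 genes rose, 3 fell, and the median was 0.27. The shares of all tested genes were 30.5% up and 28.5% down. MARS, methionyl-tRNA synthetase, held 139.5, 129.8, 126, 146 and 131 CPM against 68.8 to 79.3 CPM (log2 fold change 0.87, SE 0.035, edgeR adjusted p = 8.96e-29). MTHFD2, a mitochondrial folate enzyme, held 131, 129.6, 119, 133 and 135 CPM against 67.6 to 77.0 CPM (log2 fold change 0.85, SE 0.053, edgeR adjusted p = 1.65e-20) and exceeded the R1881 range of 71.6 to 86.5 CPM. Of the 10 tRNA synthetases 9 rose, as did all 5 serine and one-carbon enzymes, while ATF4 itself, ATF3 and DDIT3 were not called, the latter pair at -0.22 and -0.04.

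**Figure D4:**
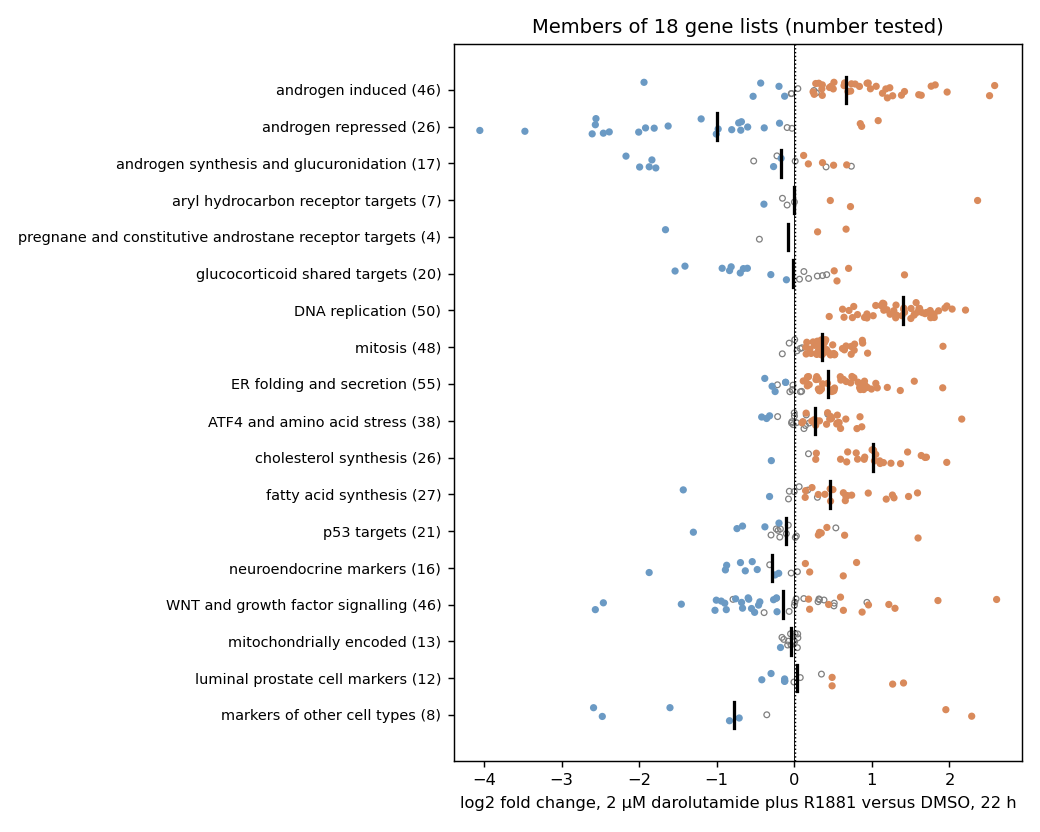
Each point is a tested member of one of 18 gene lists at its log2 fold change between R1881 plus 2 µM darolutamide and DMSO at 22 h, filled when called (orange up, blue down) and open when not, with the list median as a bar and the median of all tested genes dotted. The 50 DNA replication genes all lie to the right of 0 around 1.40, and the androgen-repressed list is centred on -0.99.

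Genes below both groups were fewer. By the naming rule the 4 farthest below both were LITAF, HIST1H2AC, FBXO32 and GATS. LITAF, a membrane protein of endosomes, lay between 19.1 and 21.7 CPM with a median of 20.1 with DMSO, at 10.2, 10.2, 9.63, 10.6 and 9.70 CPM with drug plus androgen and at 33.8 to 41.8 CPM with R1881 (log2 fold change -1.01, SE 0.052, edgeR adjusted p = 3.59e-24). HIST1H2AC, a histone H2A gene, held 14.0, 13.4, 12.9, 13.0 and 14.1 CPM against 38.3 to 44.7 CPM with DMSO and 25.5 to 31.6 CPM with R1881 (log2 fold change -1.63, SE 0.058, edgeR adjusted p = 2.29e-31). The libraries hold poly(A) RNA, so only transcripts of HIST1H2AC with a poly(A) tail were counted. FBXO32, the ubiquitin ligase atrogin-1, held 10.7, 11.2, 9.81, 10.6 and 11.7 CPM against 23.6 to 28.5 CPM (log2 fold change -1.26, SE 0.084, edgeR adjusted p = 2.13e-19). GATS had no position in GENCODE 44 and fell to 12.3, 12.1, 11.5, 12.5 and 10.4 CPM from 22.3 to 28.5 CPM (log2 fold change -1.11, SE 0.065, edgeR adjusted p = 1.32e-21). In all 4 the treated libraries lay below every DMSO and every R1881 library.

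Targets shared with the glucocorticoid receptor, a relative of the androgen receptor that binds the same DNA sites, moved both ways. Of 20 tested genes, 4 rose and 10 fell, and the median was -0.02, where 30.5% of all tested genes rose, 28.5% fell and the median was 0.01. FKBP5 was the strongest rise. METTL7A, a methyltransferase-like protein, held 65.1, 70.4, 63.2, 74.6 and 71.1 CPM against 107 to 115 CPM (log2 fold change -0.70, SE 0.047, edgeR adjusted p = 5.79e-19). KLF9, a zinc-finger factor named after its values were seen, held 1.98, 2.57, 1.31, 3.01 and 2.20 CPM against 4.96 to 7.40 CPM (log2 fold change -1.54, SE 0.12, edgeR adjusted p = 6.7e-17), below the R1881 range of 4.62 to 6.24 CPM as well.

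Lists for the receptors of foreign compounds were small. Of 7 tested targets of the aryl hydrocarbon receptor, 3 rose and 1 fell, too few to set against the 30.5% and 28.5% of all tested genes. CYP1B1, a cytochrome P450 that oxidises oestrogens, lay between 5.46 and 7.27 CPM with a median of 6.76 with DMSO and at 32.2, 31.9, 31.0, 35.4 and 36.5 CPM with drug plus androgen (log2 fold change 2.36, SE 0.077, edgeR adjusted p = 6.21e-33), while R1881 alone gave 41.6 to 57.5 CPM. NFE2L2, the oxidative stress factor NRF2, rose by 0.72, and CYP1A1, the classical target, was not called at -0.09. Of the 18 targets of the pregnane X and constitutive androstane receptors only 4 were expressed enough to be tested, of which POR and ALAS1 rose and ABCC3, a drug efflux pump, fell (log2 fold change -1.66, SE 0.14, edgeR adjusted p = 2.67e-15). ALAS1, which starts haem synthesis, was 0.30 above DMSO.

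Among 21 p53 targets, 6 rose and 5 fell, with a median of -0.10, shares near the 30.5% and 28.5% of all tested genes. AEN, a nuclease, held 56.3, 52.1, 52.4, 52.6 and 48.7 CPM against 15.3 to 20.4 CPM (log2 fold change 1.59, SE 0.055, edgeR adjusted p = 8.53e-32). SESN1, an inhibitor of growth signalling through mTOR, fell to 60.5, 58.2, 55.3, 63.4 and 63.5 CPM from 137 to 162 CPM (log2 fold change -1.30, SE 0.053, edgeR adjusted p = 1.44e-28). Neuroendocrine markers, which some prostate cancers gain when androgen signalling is blocked, fell in 9 of 16 cases and rose in 4, with a median of -0.28, against 28.5% and 30.5% of all tested genes. CHGB, a granin of secretory granules, held 34.1, 33.6, 28.7, 33.5 and 33.3 CPM against 53.9 to 64.0 CPM (log2 fold change -0.87, SE 0.046, edgeR adjusted p = 9.99e-24). SYT4, a synaptotagmin, held 17.9, 17.6, 15.96, 19.1 and 19.4 CPM against 30.4 to 36.2 CPM (log2 fold change -0.89, SE 0.058, edgeR adjusted p = 1.18e-19) and was below the R1881 level too. NCAM1, an adhesion molecule named after its values were seen, fell to 2.20, 2.57, 1.54, 3.27 and 1.92 CPM from 7.87 to 9.16 CPM (log2 fold change -1.87, SE 0.12, edgeR adjusted p = 2.46e-19). It had the lowest log2 fold change of the list, and the highest was 0.80.

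WNT and growth factor genes moved both ways, 11 up and 20 down of 46, with a median of -0.15, against 30.5% up and 28.5% down among all tested genes. IGF1R and IGFBP3 above were its members with the smallest adjusted p. Of 13 genes encoded by mitochondrial DNA, 1 was called, against 59.0% of all tested genes. MT-CO2, a cytochrome oxidase subunit, held 1090.0, 1175, 992, 1071 and 1179 CPM against 1185 to 1435 CPM (log2 fold change -0.19, SE 0.071, edgeR adjusted p = 0.0207). That call was lost without the fourth DMSO library, the highest of its group (adjusted p = 0.0547), and with DMSO libraries numbered 6 and above only (adjusted p = 0.108). MT-ND1 was not called (log2 fold change -0.16, SE 0.081, edgeR adjusted p = 0.0849). Among the 12 genes of the luminal list, ERG included, 4 rose and 5 fell, beside 30.5% and 28.5% of all tested genes. The strongest were ERG and SLC45A3, a prostate transporter at 691, 663, 777, 670.0 and 586 CPM against 233 to 331 CPM (log2 fold change 1.27, SE 0.081, edgeR adjusted p = 5.13e-20). CACNG4, a calcium channel subunit, completed the 6 largest rises, at 14.5, 14.8, 14.9, 13.4 and 12.7 CPM against 2.57 to 4.06 CPM (log2 fold change 2.08, SE 0.11, edgeR adjusted p = 6.14e-24).

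The same treatment was also sampled at 8 h, in 5 drug plus androgen and 10 DMSO libraries. They are not part of the 22 h groups compared, though both times share the gene filter and the estimate of spread. At 8 h, 5289 genes (27.5%) differed from DMSO, 2969 up (15.4%) and 2320 down (12.0%). Of the 5877 genes that rose at 22 h, 1860 (31.6%) had risen at 8 h, which is 62.6% of the 8 h rises. Of the 5488 that fell, 1534 (28.0%) had fallen at 8 h, 66.1% of the 8 h falls. A further 321 genes rose at 22 h after a fall at 8 h, and 313 fell after a rise. The difference between the 2 times was itself called in 8057 genes (41.8%), 20.7% of tested genes higher and 21.1% lower at 22 h.

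Most genes of the androgen-induced list were already raised at 8 h. Of the 46 androgen-induced genes 43 were above DMSO at 8 h, by a median of 0.87, and 31 were significantly lower at 22 h than at 8 h in this contrast. STEAP4 stood at 4.56 at 8 h and 2.52 at 22 h, a change of -2.04 (edgeR adjusted p = 8.97e-25). FKBP5 went from 2.59 to 1.42, while KLK3 stood at 0.82 and 0.98 and its change was not called (adjusted p = 0.23).

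Replication and lipid genes came later. At 8 h, 30 of 50 replication genes were called up and 1 down, with a median of 0.22, and in all 50 the rise was larger at 22 h. PCNA stood at 0.23 at 8 h and 1.65 at 22 h (change 1.42, edgeR adjusted p = 3.05e-33). E2F1 changed by 1.82 between the times (adjusted p = 9.17e-19). The cholesterol list had a median of 0.02 at 8 h. HMGCS1 was 0.29 above DMSO at 8 h and 1.69 at 22 h, and SCD stood at -0.06 and was not called at 8 h (adjusted p = 0.292). Only 295 genes (1.53%) lay above both the DMSO and R1881 groups at 8 h and 132 (0.685%) below both. Of these, 108 (36.6%) and 52 (39.4%) were in the same place at 22 h, where they made up 5.08% of the genes above and 3.95% of those below.

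Some falls also widened. SATB1 stood at -0.74 against DMSO at 8 h and -2.54 at 22 h, and MGP went from -0.38 to -2.53 (changes -1.80 and -2.15). IGFBP3, at -2.0 at 8 h, changed by -0.56.

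**Figure D5:**
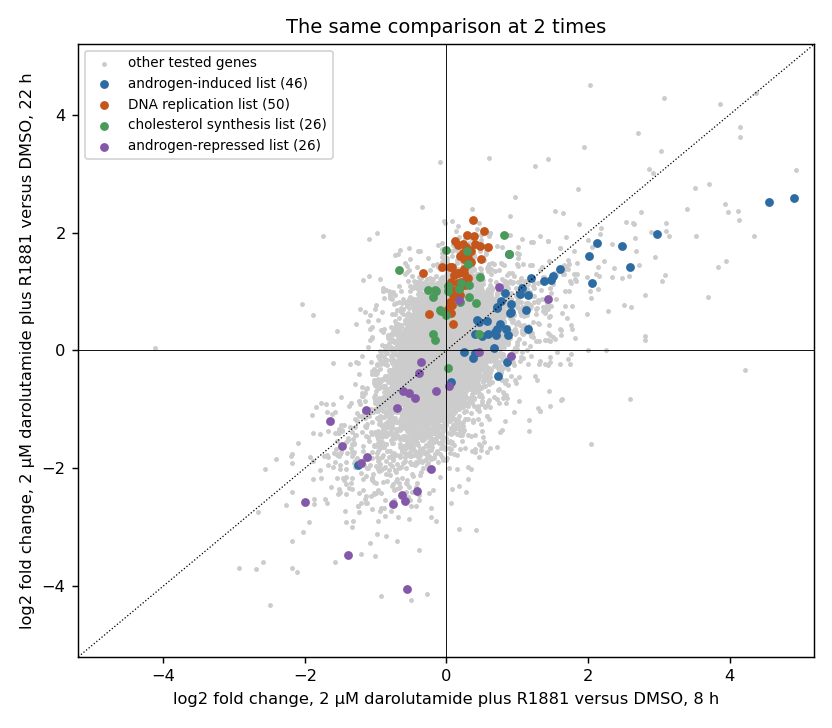
Each point is a tested gene at its log2 fold change between R1881 plus 2 µM darolutamide and DMSO at 8 h (x axis) and 22 h (y axis), from separate libraries, with equality dotted and 2 genes outside the axes. The androgen-induced list lies along or under the dotted line, whereas the replication list moves from a median of 0.22 to 1.40 and the cholesterol list from 0.02 to 1.02.

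Dose was compared through the 4 libraries with R1881 plus 500 nM darolutamide. Against DMSO, 12089 genes (62.7%) were called with 500 nM, and 3889 (20.2%) differed between 2 µM and 500 nM, 2011 higher (10.4%) and 1878 lower (9.75%) with 2 µM. Of the 46 androgen-induced genes, 39 were lower with 2 µM than with 500 nM and 2 higher, by a median of -0.52. TMPRSS2 differed by -1.49 (edgeR adjusted p = 1.68e-35) and KLK3 by -0.93 (adjusted p = 1.61e-13). For IGFBP3 the difference was 2.03 upwards (adjusted p = 4.6e-25), with 8.38 to 12.5 CPM at 500 nM.

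In the replication list 1 of the 50 genes was called between the doses, PRIM1 at 0.29 (adjusted p = 0.00273), and the list medians against DMSO were 1.40 with 2 µM and 1.34 with 500 nM. PCNA differed by 0.06 with an SE of 0.036 (adjusted p = 0.313). A call that misses the threshold does not show that the doses acted alike. Below both groups, LITAF differed by -0.61 (adjusted p = 5.58e-12) and HIST1H2AC by 0.02 (adjusted p = 0.91).

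In LAPC4 cells, a second androgen-sensitive prostate cancer line, the same comparison used 5 treated and 7 DMSO libraries and 18204 tested genes. Only 3 genes (0.0165%) were called by edgeR, and 1064 had an unadjusted p under 0.05. A fit of only the compared groups called 1, and DESeq2 called 3. The 3 genes were SLC30A10, a manganese exporter, at -0.99, LRRC31 at -0.24 and RILPL2 at 0.26. KLK2 stood at 0.24 (adjusted p = 0.904) although R1881 alone raised it by 2.53, and TMPRSS2 at 0.05 and PCNA at 0.04 were close to vehicle. With R1881 alone TMPRSS2 stood at only 0.52 and PCNA at 0.20 in LAPC4. The 2 lines were fitted apart, and the difference between them was not tested.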

How the data were processed

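Poly(A) RNA libraries (TruSeq Stranded mRNA, single-end reads) of VCaP and LAPC4 cells had been aligned by the authors with STAR to GRCh38 and counted per gene with featureCounts of Subread and the deposited values are raw read counts per gene. Aligner and counter versions, the gene annotation, strandedness of counting and handling of multimapping reads are not given in the sources used here. Groups were taken from the labels. A gene was kept when 4 or more of the 55 VCaP libraries held 10 or more reads of it, and the kept genes were fitted together over 8 groups with edgeR 4.0.16 (TMM, quasi-likelihood test, Benjamini-Hochberg adjustment, R 4.3.3), and LAPC4 was fitted apart. A gene above or below both the DMSO and the R1881 group had to pass both comparisons, by the larger p. DESeq2 1.42.0, other scalings, filters and library subsets were alternatives. The code was tested on simulated counts. The methods describe 5 biological replicates per condition, whereas the labels give 4 to 10 libraries per group, and the origin of the further ones is not given in the sources used here.

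Genes were named by rule: 9 androgen targets, the 6 largest rises and 6 largest falls and the 4 genes farthest above and below both groups (all above the median expression), the 2 smallest adjusted p of each list, and the extremes among genes that R1881 moved most at 8 h. A few items that the rule names are not reported here. Any other gene named was chosen after its values were seen. The comparison and the lists were chosen with earlier results of these data known. Positions are from GENCODE 44 and promoters from RefSeq (GRCh38.p14). Intervals of CPM cover the libraries compared, and the depth of at least 12951648 reads limits genes near the filter.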

Additional observations from a re-analysis of the deposited data

Results flagged for a closer look

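For 60 named genes and 18 list means, the DMSO and the 2 µM libraries at 22 h were each examined for a stray library. Of these 156 sets of values, 11 held a library far from the others, where chance gives about 1 in 20. The sets come from the same 13 libraries and are not independent. In the 2 µM group the fourth library was highest for NCAPD3 (465 CPM, the next at 407) and for IGFBP3 (53.6 CPM, the next at 42.5). The third was lowest for PDIA6 (423 CPM, the next at 454) and for CHGB (28.7 CPM, the next at 33.3), the second was lowest for TIPARP (8.23 CPM, the next at 9.49), and the fifth was lowest for the mean of the p53 targets (3.94 log2 CPM, the next at 4.02). In the DMSO group SATB1 was highest in replicate 6 (48.8 CPM, the next at 45.6), MT-CO2 in replicate 4 (1435 CPM, the next at 1283) and TIPARP in replicate 8 (13.2 CPM, the next at 11.02). Replicate 1 was lowest for the mean of the pregnane X receptor list (2.18 log2 CPM, the next at 2.70) and of the glucocorticoid-shared list (3.06, the next at 3.26). For NCAPD3, IGFBP3, SATB1, PDIA6 and CHGB the drug plus androgen and DMSO groups remained apart with these libraries in place.

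The log2 fold change against DMSO differed between 22 h and 8 h, by a test of the difference, in 8057 genes and in many of those named. It was smaller at 22 h in the androgen targets FKBP5 (-1.17), NCAPD3 (-1.0) and STEAP4 (-2.04). RDH10 (-1.19) went from above DMSO at 8 h to below it at 22 h. It was lower at 22 h in SATB1 (-1.80), MGP (-2.15), ALB (-1.41), NAALAD2 (-1.97), TSPAN8 (-1.70), HIST1H2AC (-1.36) and ABCC3 (-1.32). Cell-cycle genes were higher at 22 h, with differences of 1.82 for E2F1, 1.51 for CDC6, 1.37 for CDCA7, 1.39 for EXO1, 1.23 for DTL, 1.47 for FAM111B, 1.42 for MCM4, 1.42 for PCNA and 1.73 for MYBL2. The lipid genes HMGCS1 (1.40), SCD (1.65) and FADS1 (1.12) and the nuclease gene AEN (1.51) were also higher at 22 h.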

How the results depend on the processing

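Across 10 alternatives and the omission of each of the 13 libraries in turn, 330 of 338 comparisons of counts stayed within 1.5 times the value given. Called genes numbered 8896 to 12625 across the alternatives and 10667 to 11348 with 1 library left out. The replicate numbers did not pair the libraries: correlations of deviations between libraries with the same number ran from -0.143 to 0.0158, and 0 of 5 correlated best with their own number. With the replicate block, genes above or below both groups fell to 2220 (3445 without it), those below both to 709, those between to 3020, induced genes called down to 84, and the 8 h count to 3375. The LAPC4 count was 63 with the replicate block and 1 with only the groups compared in the fit. Scaling by library size alone raised the repressed genes called up from 99 to 162. Of 1380 values of named genes 1371 kept their direction and call, and none was reversed. MT-ND1 and TIPARP gained a call under 4 and 2 alternatives. The cause of these changes was not tested. Depth limits genes near 10 reads.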
